A study of Mus musculus with 6 samples.

Results

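Processed pseudogenes are copies of messenger RNAs that were reverse transcribed and inserted back into the genome, so they usually lack the introns and the promoter of the gene they came from. Most of them derive from genes that are transcribed at high levels, such as those of ribosomal proteins and of glycolysis, and recent copies differ from the coding sequence of their parent at few bases. Short sequencing reads from a young copy and from its parent are therefore hard to assign to one or the other, and a row of a count table can hold reads of both.

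Here the expressed processed pseudogenes of hypoxic (HO) primary neonatal mouse cardiomyocytes (NMCMs) are described. They were taken as the rows of the deposited count table with the biotype processed pseudogene, on chromosomes 1 to 19, with a mean of at least 30 counts over the 6 libraries. This rule found 273 of 8973 autosomal processed pseudogenes, in a table of 57010 rows. Of the 8973, 6769 (75.4%) had 0 counts in every library. NMCMs came from neonatal C57BL/6 mice and were enriched by differential adhesion, and all 6 libraries came from cells under hypoxia. Libraries V1, V2 and V3 belonged to the HO + Vehicle group, and T4, T5 and T6 to the HO + β-SITO group, which was treated with the phytosterol β-sitosterol. The dose and the time were not in the labels, and no library from normoxic cells was analysed here.

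The members were selected on their mean count, so their being expressed is no result. Over the 6 libraries their mean counts ran from 30.3 to 4529 with a median of 93.7. In each group separately, 247 reached a mean of 30, while 13 reached it in the HO + Vehicle group alone and 13 in the HO + β-SITO group alone. These 26 could enter through the group in which they were high, so a difference in them is partly fixed by the rule, and their fold changes are given below as descriptions, with no p-value. The members closest to the limit were Rpl21-ps8 (30.8 counts, the same mean as Atp5pb-ps), Gm19680 (30.7) and Gm12669 (30.3), and the rows just outside were Gm8775 (29.8), Gm10819 (29.8) and Gm12693 (29.7). Chromosome 2 held the most members (28) and chromosome 16 the fewest (6). The name of 77 members ends in -ps with or without a number, and the description of 189 holds the word predicted.

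The libraries held 16694734 to 18460522 counts. The members took 0.410% to 0.458% of all counts in HO + Vehicle libraries and 0.334% to 0.362% in HO + β-SITO libraries. Without 2 rows, Gm13394 and Ftl2-ps, the share was 0.334% to 0.382% and 0.333% to 0.361%, so that the groups overlapped. Levels are given in CPM (counts scaled to a common library size with TMM factors), except the marker sums of this paragraph, which are scaled by library counts without TMM factors. Cardiomyocyte markers were present in all libraries, with summed levels of 5308 to 6188 for V1 to V3 and 5413 to 9402 for T4 to T6. Markers of fibroblasts were also abundant and summed to 28090 to 29095 CPM and 45931 to 46915 CPM, and those of macrophages to 920 to 1034 CPM and 2480 to 3049 CPM. Endothelial markers summed to 151 to 172 CPM and 646 to 681 CPM, and smooth muscle markers to 515 to 558 CPM and 1116 to 1299 CPM. None of the 8, 6, 6, 4 and 3 markers of these lists was at 0, but Tagln had 34 to 36 counts in V1 to V3, where the smooth muscle sum was mostly Acta2. By edgeR (adjusted p under 0.05), 4 cardiomyocyte markers rose and 1 fell, and 3 fibroblast markers rose and 2 fell. Of the macrophage markers 5 rose and 1 did not pass, and all endothelial and smooth muscle markers rose. Of all genes tested, 33% rose and 33.8% fell. The part of cell makeup in the results below was not tested, and in such bulk samples fewer cells of a type and less RNA per cell cannot be told apart. The names of T4, T5 and T6 end in a letter that those of V1, V2 and V3 do not have, and whatever it stands for cannot be told apart from the treatment.

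To see how close the members are to coding genes, their transcripts were compared with all coding transcripts of the same species. A coding match was found for 268 of the 273, and 254 were near copies, with at least 95% identity over at least 80% of their length. The median identity of these near copies was 99.4% and the median number of mismatches was 3. There was no mismatch or gap in 43 of them, and 227 shared an exact run of at least 150 bases, the length of a read, with the coding gene. The sequences below show the copies on which the results turn. They were taken from GENCODE vM21 transcripts (build GRCm38) by gene identifier, and positions count from the A of the start codon of the coding gene. Capitals mark bases at which a copy shown and the coding gene differ, and gene positions are those of the table in build GRCm39.

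Gapdh encodes the glycolytic enzyme glyceraldehyde-3-phosphate dehydrogenase and lies on chromosome 6 (chr6:125138678-125143430, minus strand). Its copy Gm13394 is on chromosome 2 (chr2:28823622-28824621, minus strand), within the span of Cfap77, and differed from Gapdh over 1000 aligned bases at 1 position, A346C. Gm12070 on chromosome 11 (chr11:26736633-26737634, plus strand) differed at 1 position nearby, G361A. Coding positions 331 to 376 are shown because both differences fall there.
Gapdh: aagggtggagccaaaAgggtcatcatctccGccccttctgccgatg
Gm13394: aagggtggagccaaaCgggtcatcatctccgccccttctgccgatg
Gm12070: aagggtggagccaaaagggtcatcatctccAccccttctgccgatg

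Ftl1 encodes the light chain of ferritin, the protein that stores iron, and lies on chromosome 7 (chr7:45107368-45109308, minus strand). Ftl2-ps on chromosome 4 (chr4:125398081-125398632, plus strand), within the span of Grik3, differed from it at 7 positions, A307C, T354C, G366C, A401T, T402C, G468A and G504A. Gm15590 on chromosome 17 (chr17:6182129-6182680, minus strand) differed at 5, G127A, G295T, G468A, G495A and G504A. Coding positions 453 to 519 are shown because they hold G468A and G504A, which both copies share, and G495A, which Gm15590 alone has.
Ftl1: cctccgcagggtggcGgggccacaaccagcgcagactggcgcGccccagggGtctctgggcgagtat
Ftl2-ps: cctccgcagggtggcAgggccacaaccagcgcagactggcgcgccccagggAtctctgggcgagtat
Gm15590: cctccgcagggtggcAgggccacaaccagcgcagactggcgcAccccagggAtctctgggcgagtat

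Rbpj encodes the DNA-binding factor through which Notch receptors act. Its copy Rbpj-ps3 on chromosome 6 (chr6:46506288-46507728, minus strand) differed from it at 4 positions, T447C, C1086A, G1089A and A1225C. Coding positions 1071 to 1104 show the closest pair of these differences.
Rbpj: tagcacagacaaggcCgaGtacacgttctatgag
Rbpj-ps3: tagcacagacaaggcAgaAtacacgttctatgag

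**Figure D1:**
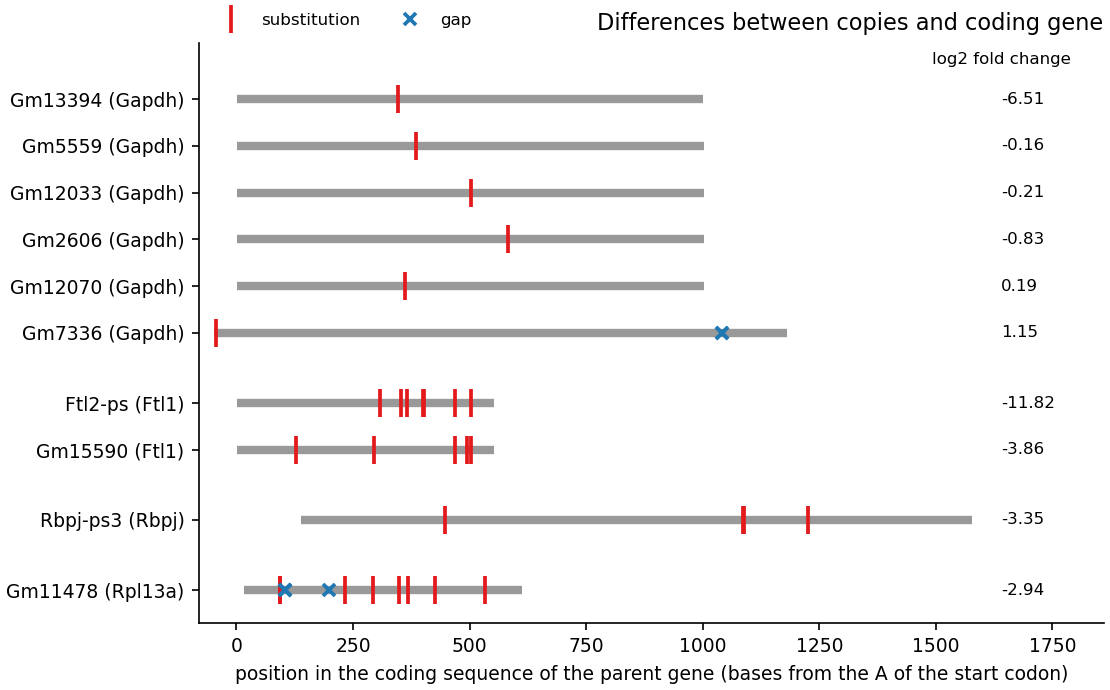
Each grey bar spans the coding positions of the parent gene (x axis, bases from the A of the start codon) that a copy aligns to, with substitutions as red strokes and gaps as blue crosses; the number at the right is the log2 fold change of the copy, HO + β-SITO against HO + Vehicle. Gm13394, Gm5559, Gm12033, Gm2606 and Gm12070 each differ from Gapdh at 1 position, and their log2 fold changes run from -6.51 to 0.19.

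Next, the members were compared between the groups with edgeR's quasi-likelihood test, with p-values adjusted over all 14799 genes tested. Of the 273, all of which were tested, 74 fell and 38 rose with β-SITO (adjusted p under 0.05), against 33.8% lower and 33% higher of all genes tested. With upper quartile scaling, which moves the median of all genes up by 0.14, 56 members fell and 62 rose, and with scaling by library size alone 56 fell and 64 rose. With DESeq2, the tool of the study, 57 fell and 28 rose. Together the 112 members past the threshold were 41.0%, against 66.8% of all genes. When a change of more than 2-fold was also asked for, as for the differentially expressed genes (DEGs) of the study, 24 members were lower and 6 were higher, 30 in all, against 10.1% lower, 12.8% higher and 22.8% in all for the whole table. Of the 247 members with a mean of 30 in each group, 63 fell and 32 rose (adjusted p under 0.05), and 14 were DEGs lower and 3 were DEGs higher. The other 10 DEGs that were lower (Ftl2-ps, Gm15590, Gm12250, BC023105, Gm5970, Gm6545, Gm7818, Gm44126, Gm18609 and Mrto4-ps1) reached it with vehicle alone, and the other 3 that were higher (Gm8399, Gm6166 and Gm14292) with β-SITO alone. In 116 members (42.5%) the CPM of the groups did not overlap, against 70.5% of all genes. These shares were not matched for count level, and the median of the members' mean counts was 93.7. They therefore do not show that members changed less than other genes of like level. The median log2 fold change of the members was -0.04, with quartiles of -0.40 and 0.20, and that of all genes was -0.01, with quartiles of -0.40 and 0.48.

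**Figure D2:**
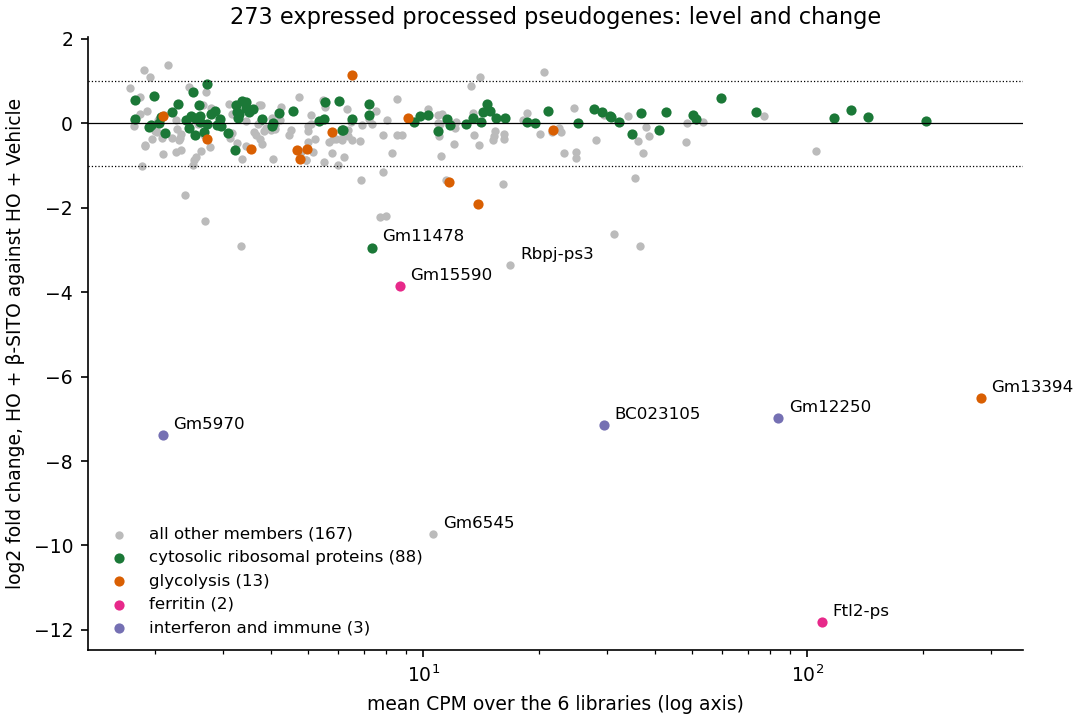
Each point is one of the 273 members, with its mean CPM over the 6 libraries on a log axis (x) and its log2 fold change, HO + β-SITO against HO + Vehicle (y); dotted lines mark 2-fold. Most members lie between the lines, and 8 members fell by more than 8-fold, among them Gm13394 and Ftl2-ps, which are also among the most abundant.

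Labels for groups of members came from the symbol of the named parent or, where no parent was named, of the closest coding gene. Symbols were matched by their first letters, so Gm7367, a copy of Ubald2, stands with the ubiquitin and proteasome copies. The counts in each group stand against the 33.8% of all genes tested that fell and the 33% that rose, and they are given as descriptions of the groups. Copies of cytosolic ribosomal protein genes, whose products build the ribosome, were the largest group with 88 members. Of them 17 rose, 1 fell and 70 did not pass, with a median log2 fold change of 0.14. Rps16-ps2, identical to Rps16 over its whole length, had 727, 821 and 714 counts in V1 to V3 and 1694, 1129 and 1250 in T4 to T6. It rose by 0.61 on the log2 scale (SE 0.11, adjusted p = 0.000111), and Rps16 itself changed by 0.49. Rpl14-ps1 rose by 0.31 (adjusted p = 0.000979). Among the coding rows of the table with an Rpl or Rps symbol, 83 were tested, of which 40 rose and 6 fell, with a median of 0.18. This list was made by symbol and also holds rows such as Rps19bp1, Rpl7l1 and Rpl9-ps6, so not every row need be a ribosomal protein gene. The copy that fell, Gm11478, is described with the exceptions below.

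Copies of glycolytic genes numbered 13. Among them 6 fell, 1 rose and 6 did not pass. Pgam1-ps2, a copy of phosphoglycerate mutase with no mismatch, changed by -0.63 (adjusted p = 0.00411) beside -0.73 for Pgam1. Pgk1-rs7, a copy of phosphoglycerate kinase, changed by -0.61 (adjusted p = 0.0089) beside -0.65 for Pgk1. Of the 14 glycolytic genes tested, 10 fell and 2 rose. Ldha-ps2, related to the gene of lactate dehydrogenase A, had 384, 327 and 339 counts in V1 to V3 and 94, 113 and 119 in T4 to T6. Its log2 fold change was -1.92 (SE 0.12, adjusted p = 1.07e-09), larger than the -0.67 of Ldha, and it is no near copy (94.5% identity over 79.1% of its length).

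Proteasome and ubiquitin copies numbered 12, of which 5 fell and none rose. Gm13835, identical to the proteasome subunit gene Psma3, had 721, 840 and 860 counts in V1 to V3 and 430, 350 and 387 in T4 to T6, and fell by 1.29 on the log2 scale (SE 0.08, adjusted p = 1.66e-09), beside -1.20 for Psma3. Psma5-ps and Gm12989 fell by 1.15 and 1.35 beside -1.18 for their coding gene Psma5. Of the 14 copies of nuclear and chromatin genes 7 fell and 1 rose, and all 3 copies of Hnrnpa3, which encodes an RNA-binding protein, were among those that fell. Copies of chaperone and cyclophilin genes (9) fell in 4 cases and rose in none, with Gm15459, a copy of the heat-shock cognate gene Hspa8, at -0.71 beside -0.70 for Hspa8. Mitochondrial copies (14) fell in 2 cases and rose in 1. Translation factor copies (8) fell in 3 cases and rose in 2, and cytoskeletal copies (6) fell in 3 and rose in 2. The other 101 members with a coding match fell in 38 cases and rose in 13.

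The 6 members that were DEGs higher had log2 fold changes of 1.10 to 1.39. Gm12715 and Gm8399 are copies of Actg1, the gene of cytoplasmic gamma-actin. Gm12715 had 130, 141 and 158 counts in V1 to V3 and 417, 330 and 334 in T4 to T6, so the groups did not overlap, and its log2 fold change of 1.10 (SE 0.11, adjusted p = 3.23e-07) lay beside 1.06 for Actg1. Gm8399 was at 1.39. Gm6166, a copy of the fatty acid-binding protein gene Fabp5, was at 1.26 beside 1.41 for Fabp5. Dynlt1-ps1, which matches the genes of a dynein light chain, had 168, 219 and 206 counts in V1 to V3 and 588, 491 and 555 in T4 to T6. It rose by 1.22 (SE 0.10, adjusted p = 2.14e-08), and Dynlt1f, one of several coding genes that match it equally well, rose by 0.29. The remaining 2, Gm7336 and Gm14292, are described with the families and exceptions below.

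Because the parents are measured in the same libraries, each near copy was then set beside its coding gene. For 252 near copies of 192 coding genes both rows were tested. The fold changes lay close together: 226 copies (89.7%) were within 0.5 of their coding gene on the log2 scale, 237 (94.0%) were within 1, and the median difference was -0.02. Copies more than 1 below their coding gene numbered 11, and 4 were more than 1 above. Of 99 near copies past the adjusted p, 85 had a coding gene that passed in the same direction, 5 had one that passed in the opposite direction and 9 had one that did not pass. Pearson's r of the fold changes across the 252 pairs was 0.17 and Spearman's rho was 0.69, and r within the 237 pairs was 0.90. These describe pairs in the same libraries, in which copies can share reads with their gene and families share a gene, and they are no test.

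**Figure D3:**
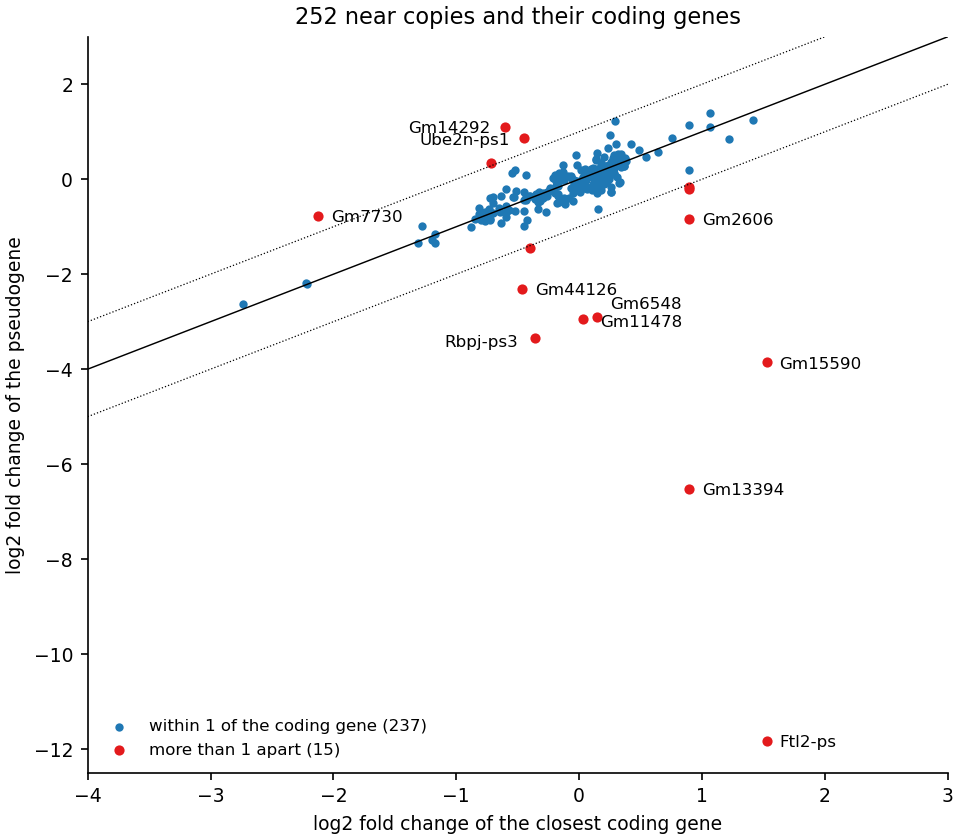
Each point is a near copy whose coding gene was also tested (252), with the log2 fold change of the coding gene (x) and of the copy (y), HO + β-SITO against HO + Vehicle; the solid line marks equal change and dotted lines a difference of 1. Most points follow the solid line (237 within the dotted lines), while Ftl2-ps, Gm13394 and Gm15590 lie far below it although their coding genes rose.

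Copies that moved with a DEG parent came from several pathways. Gm5424, a copy of the argininosuccinate synthase gene Ass1 with 6 mismatches, had 849, 927 and 814 counts in V1 to V3 and 173, 144 and 179 in T4 to T6. Its log2 fold change was -2.62 (SE 0.09, adjusted p = 5.94e-13) beside -2.73 for Ass1. Gm3571, a copy of the farnesyl diphosphate synthase gene Fdps, which acts in cholesterol synthesis, had 211, 198 and 198 counts and then 65, 42 and 47. Both Gm3571 and Fdps fell by 2.21. Gm16589 fell by 2.19 beside -2.22 for Aida, and Gm3788, a copy of the thymosin gene Tmsb10, fell by 1.33 beside -1.31. In all, 10 of the 22 near copies that were DEGs had a coding gene that was a DEG in the same direction.

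**Figure D4:**
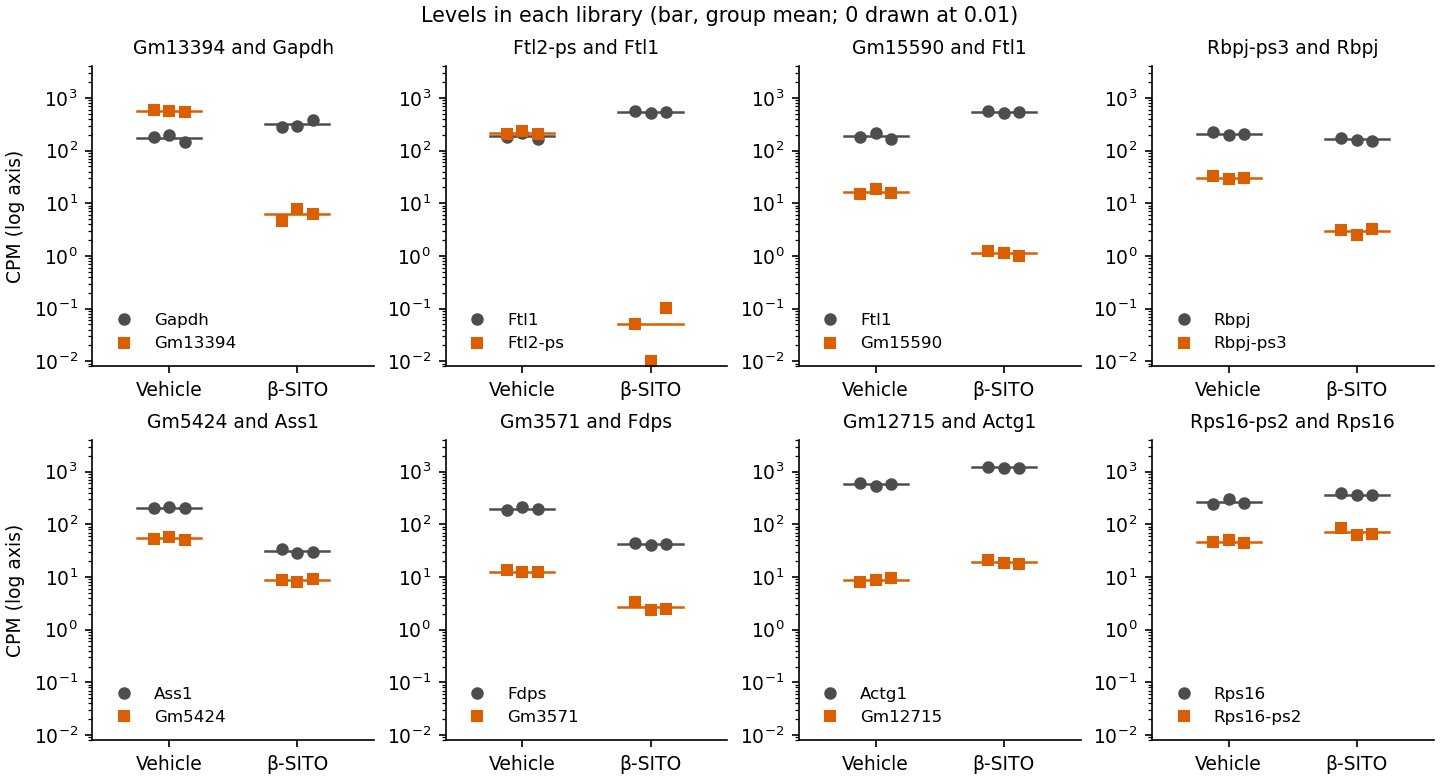
CPM in each library (log axis) of 8 copies (orange squares) and their coding genes (grey circles), with 3 libraries per group and bars at the group means; a value of 0 is drawn at 0.01. In the upper row the copy and the coding gene part between the groups, and in the lower row Gm5424, Gm3571, Gm12715 and Rps16-ps2 move with their coding genes.

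Levels were compared per kilobase, with the span of the copy and the transcript length of its coding gene. A near copy reached a median of 11.6% of the CPM per kilobase of its coding gene, 24 stayed under 1% and 19 were above it. The most extreme was Rps10-ps2 on chromosome 16, which had 2017 to 2969 counts per library, whereas Rps10 had 10 to 26. Copies thus held 99.2% of the counts of Rps10 and its copies in the HO + Vehicle group and 99.4% in the HO + β-SITO group. Rps10 encodes a protein of the small ribosomal subunit. Rps10-ps2 changed by 0.16 (SE 0.07, adjusted p = 0.0452), and its groups overlapped in CPM. The 12 members with the highest CPM held 36.4% of the counts of all members. Besides Rps10-ps2, Gm13394, Ftl2-ps, Gm12250, Rpl14-ps1 and Rps16-ps2, they included Gm9794 (log2 fold change 0.07), Gm6136 (0.14), Tpt1-ps3 (0.17) and Gm6055 (0.04), none past the threshold, and Eif4a-ps4, which fell by 0.64 (adjusted p = 1.23e-07) beside -0.57 for Eif4a1, the gene of an RNA helicase of translation initiation.

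The member with the most counts, Gm13394, had 9352, 8847 and 8631 counts in V1 to V3 and 90, 137 and 118 in T4 to T6. Every HO + Vehicle library was thus far above every HO + β-SITO library, at 560 ± 28.3 CPM against 6.16 ± 1.54 CPM (SD, n = 3). The log2 fold change was -6.51 (SE 0.12, edgeR adjusted p = 4.67e-16). Gapdh had 2855, 3106 and 2338 counts in V1 to V3 and 5557, 5216 and 7471 in T4 to T6, the opposite order, and rose by 0.90 (SE 0.11, adjusted p = 5.23e-06). Gm13394 held 76.4% of the counts of the pair in the HO + Vehicle group and 1.86% in the HO + β-SITO group, although the sequences differ at 1 base. The files hold counts and no reads, so which base the reads counted for either row carried was not tested, and neither was the genotype of the cultures at these copies or at those of Ftl1.

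Gapdh had 6 near copies, of which Gm13394 fell, Gm7336 rose and the other 4 did not pass. Gm5559 had 313 to 396 counts in V1 to V3 and 327 to 442 in T4 to T6, with a log2 fold change of -0.16 (adjusted p = 0.253). Gm12033 was at -0.21 (adjusted p = 0.37) and Gm12070 at 0.19 (adjusted p = 0.453). Each of these differs from Gapdh at 1 base, T385A, T504C and G361A. Gm2606, with C583T, varied widely within the groups, with 29, 208 and 57 counts and then 30, 58 and 106. Gm7336, which has no difference from Gapdh within the coding sequence, had 102, 42 and 49 counts in V1 to V3 and 188, 206 and 110 in T4 to T6. It rose by 1.15 (SE 0.29, adjusted p = 0.00238), as a DEG, but was at 0.96 without T5 and at 0.92 without V2, both under 2-fold. A more distant relative, Gm5345 with 90.7% identity, fell by 1.39 (SE 0.11, adjusted p = 1.45e-08).

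Because these rows can share reads, the counts of near copies were also added to those of their coding gene and the whole table was fitted again, a step chosen after the data had been seen. Gapdh with its 6 copies had 12866, 12723 and 11518 counts in V1 to V3 and 6303, 6175 and 8395 in T4 to T6. The sum fell by 1.06 on the log2 scale (SE 0.09, adjusted p = 2.43e-08), as a DEG, whereas the Gapdh row by itself rose by 0.90. Copies held 77.6% of the sum in the HO + Vehicle group and 12.6% in the HO + β-SITO group. Of the 192 coding genes with near copies, Gapdh was the only one that passed the threshold in both fits with opposite signs.

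**Figure D5:**
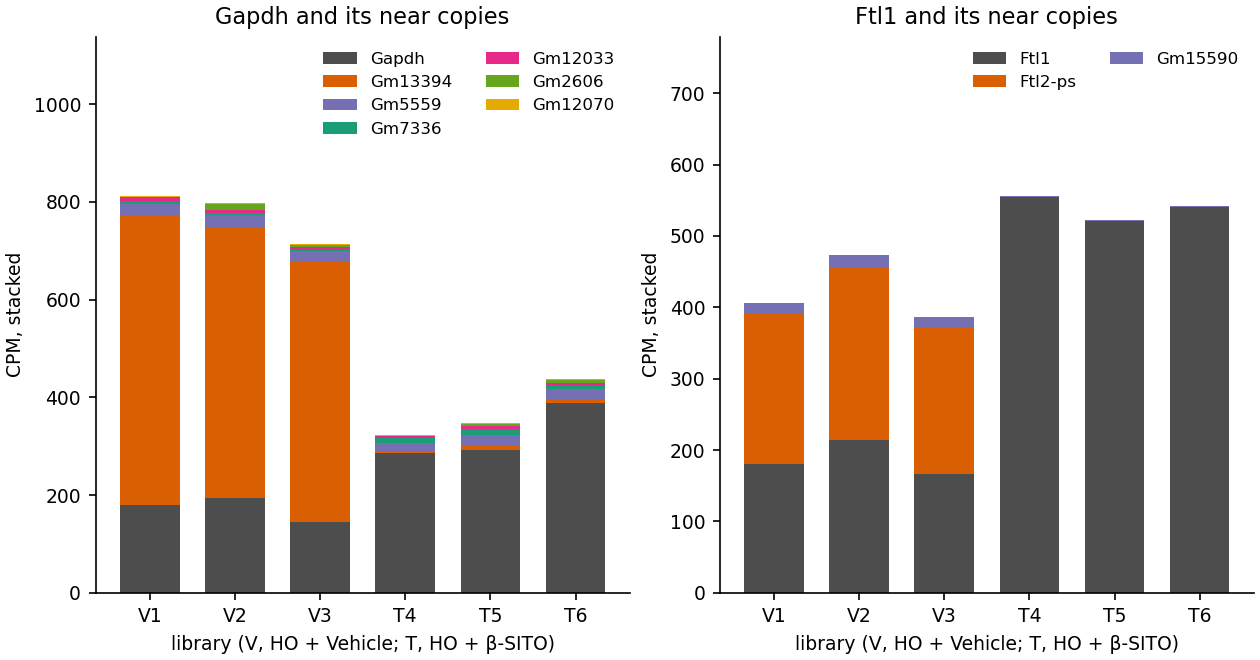
Stacked CPM (y axis) of Gapdh and its 6 near copies (left) and of Ftl1 and its 2 near copies (right) in each of the 6 libraries (x axis). Gm13394 and Ftl2-ps fill much of the bars of V1 to V3 and are barely visible in T4 to T6, where the coding genes make up most of the bars.

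Both ferritin light chain copies were lower with β-SITO, and both had reached the mean of 30 counts with vehicle alone. Ftl2-ps had 3345, 3835 and 3296 counts in V1 to V3 and 1, 0 and 2 in T4 to T6. From the summed 10476 and 3 counts it was 4114-fold lower after scaling by library size with TMM factors. The 95% counting interval was 1407 to 19954, which covers counting error only. Gm15590 had 240, 292 and 248 counts and then 24, 20 and 19, at 16.3 ± 1.76 CPM against 1.12 ± 0.12 CPM (SD, n = 3). The log2 fold change was -3.86. Ftl1 itself had 2851, 3418 and 2683 counts in V1 to V3 and 10805, 9281 and 10392 in T4 to T6, and rose by 1.53 (SE 0.08, adjusted p = 1.51e-10). With both copies added, Ftl1 had 6227 to 7545 counts in V1 to V3 and 9301 to 10830 in T4 to T6. The log2 fold change of this sum was 0.36, under 2-fold. It is given as a description without a p-value, since both copies entered through vehicle alone. The copies held 55.7% of that sum in the HO + Vehicle group and 0.22% in the HO + β-SITO group.

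Other near copies parted from their coding gene by more than 1 on the log2 scale. Rbpj-ps3 had 522, 464 and 479 counts in V1 to V3 and 61, 45 and 63 in T4 to T6, a log2 fold change of -3.35 (SE 0.11, adjusted p = 7.04e-13), beside -0.36 for Rbpj. Gm11478, a copy of the ribosomal protein gene Rpl13a, had 216, 209 and 198 counts and then 35, 31 and 29, a log2 fold change of -2.94 (SE 0.14, adjusted p = 6e-11), beside 0.03 for Rpl13a. It lies within Vmp1 on the same strand, and Vmp1, a gene of autophagosome formation, fell by 0.78. Gm6548, a copy of the elongation factor gene Eef1a1 with 36 mismatches, had 959, 1174 and 968 counts and then 161, 148 and 180, and fell by 2.90 (SE 0.10, adjusted p = 7.55e-13) beside 0.15 for Eef1a1. In all 3 copies the groups did not overlap.

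Gm44126, a copy of Uxs1 with no mismatch, was at -2.31 beside -0.46 for Uxs1, with 76, 113 and 26 counts and then 27, 9 and 15. Gm4202, a copy of the 14-3-3 protein gene Ywhaz, was at -1.44 beside -0.40. In the other direction, Gm14292, a copy of Wtap, which encodes a subunit of the RNA m6A methyltransferase complex, had 22, 20 and 17 counts in V1 to V3 and 58, 52 and 40 in T4 to T6. It was at 1.11 while Wtap fell by 0.61, and it had reached the mean of 30 counts with β-SITO alone. Gm7730, a copy of the nucleoside diphosphate kinase gene Nme2, had 211, 244 and 218 counts and then 174, 141 and 148, more than Nme2 itself with 40, 76 and 48 and then 13, 17 and 14. Gm7730 fell by 0.78 and Nme2 by 2.12, and their sum fell by 0.95. Near copies without a mismatch were more than 1 from their coding gene in 3 of 47 cases, those with 1 to 3 mismatches in 5 of 89, those with 4 to 10 in 5 of 84 and those with 11 or more in 2 of 32.

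Across all 192 coding genes, adding the copies moved the log2 fold change by more than 0.1 in 13, with a median absolute shift of 0.01. Besides Gapdh and Ftl1, Nme2 changed its status as a DEG. Rpl13a with Gm11478 added was at -0.39 (adjusted p = 0.000236) beside 0.03 by itself, and Rps10 with its 2 copies was at 0.16 (adjusted p = 0.0467) beside -0.13 by itself.

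Where the name or description of a member states its parent, the pair was compared by the ratio of their counts in each library. This gave 74 pairs with 66 parents, and the named parent was the closest coding gene by sequence in all 72 pairs in which both could be had. In 7 pairs (9.46%) the ratios of the groups did not overlap, with 4 lower and 3 higher in the HO + β-SITO group, against 13.1% of all 130 processed pseudogenes with a named parent. An exact two-sided permutation test of 3 libraries against 3 can give no p below 0.1. Any pair without overlap has that value by construction, so the test adds nothing for the 7. The median difference of the log2 fold changes was 0.01, and 68 pairs lay within 0.5.

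Rbpj-ps3 to Rbpj was the pair with the largest difference, with a log2 ratio of -2.78 ± 0.03 with vehicle and -5.78 ± 0.22 with β-SITO (SD, n = 3). Ldha-ps2 to Ldha followed, with a log2 ratio that fell by 1.24. Rpl17-ps10, Rpl28-ps3, Rps27a-ps3 and Rpl36-ps12, all copies of ribosomal protein genes, were the next, with differences of -0.42 to -0.30 from their parents, and none of the 4 passed the threshold itself. On the other side, Ube2n-ps1, identical to the ubiquitin-conjugating enzyme gene Ube2n, lay 1.31 above it, with 23, 23 and 38 counts and then 108, 27 and 46, so that the groups overlapped, and without T4 its own log2 fold change was 0.17 in place of 0.86. Hspd1-ps3, a copy of the mitochondrial chaperonin gene Hspd1, lay 1.07 above it, with T5 and V2 the highest libraries of their groups. The log2 fold change of Hspd1-ps3 itself was 0.35 (edgeR adjusted p = 0.293), and -0.01 without T5. Rpl19-ps11 (0.53 above Rpl19), Pdcd5-ps (0.51 above Pdcd5), Rpsa-ps2 (0.41 above Rpsa) and Dnajb6-ps (0.38 above Dnajb6) completed the 6 highest. The position of Rpl19-ps11 rests on T6, since its own log2 fold change of 0.50 was -0.22 without that library, and Dnajb6-ps was at -0.21 but at -0.71 without T4 and at 0.07 without T6. Rpsa-ps2, which reached the mean of 30 counts with β-SITO alone, was at 0.65, and at 0.56 without T6.

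There were 13 coding genes with 3 or more near copies, 48 copies in all. Apart from Gapdh, all of these copies were within 1 of their coding gene on the log2 scale. The 6 copies of Rpl21 ran from -0.23 to 0.34 with 0.18 for Rpl21, and none passed. The 4 copies of Rpl23a ran from -0.02 to 0.04, around 0.03 for Rpl23a. Copies of Rpl6 ran from 0.14 to 0.52 and those of Rpl7a from 0.09 to 0.27, with 0.28 and 0.22 for the coding genes. All 3 copies of Rbm3, the gene of a cold-inducible RNA-binding protein, fell, from -0.86 to -0.70 beside -0.72 for Rbm3, and so did the 3 copies of Hnrnpa3, from -0.99 to -0.44 beside -0.45. The 3 copies of Hmgb1, the gene of a chromatin protein, ran from -0.01 to 0.04 beside 0.17. Those of Rpl9 ran from 0.27 to 0.93 and those of Rpl17 from -0.16 to 0.36.

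Members that are no near copies of a coding gene included 5 that were far lower with β-SITO, all of which had reached the mean of 30 counts with vehicle alone. Gm12250, also known as Irgb10, an immunity-related GTPase of cell-autonomous defence that interferon induces, had 2605, 2557 and 2839 counts in V1 to V3 and 32, 24 and 18 in T4 to T6. It was at 167 ± 8.1 CPM against 1.31 ± 0.36 CPM (SD, n = 3). The log2 fold change was -6.99. The table gives it the biotype processed pseudogene, but its best coding match, Gm5431, has 68.5% identity. BC023105 had 813, 1006 and 999 counts and then 4, 13 and 6, a log2 fold change of -7.15, and is 94.4% identical to Gm4841, which was at -9.15. Gm5970, 88.1% identical to the immunity-related GTPase gene Iigp1 (-6.31), had 75, 57 and 68 counts and then 1, 0 and 0. Its summed counts were 236-fold lower after the same scaling with TMM factors, with a 95% counting interval of 41.8 to 9354. It lies within Gm4951 on the same strand, which was at -6.90. These 3 members were put in a group of interferon and immune copies after their values had been seen.

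Gm6545 had 312, 339 and 365 counts in V1 to V3 and 0, 1 and 0 in T4 to T6, which is 1197-fold lower after scaling with TMM factors (95% counting interval 214 to 47328). Its best coding match, Fam111a, a protease gene linked to DNA replication and virus restriction, has 73.2% identity and was at -0.49. The long noncoding RNA row A330040F15Rik spans the same bases on the same strand. Gm7818, related to the zinc finger gene Zfp994 at 86.1% identity, had 95, 98 and 91 counts and then 17, 15 and 12, a log2 fold change of -2.92, beside -0.38 for Zfp994.

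Finally, members were checked for other rows at the same place, since counting by strand is not stated. Another row overlapped 100 of the 273 members, 47 on the same strand and 55 on the opposite strand, with 2 counted in both. For 70 of these members an overlapping row was tested. Both passed in the same direction in 10 members, 5 of them on the same strand, and in opposite directions in 8, and 45 members did not pass themselves. Rpl14-ps1 rose while Trpm4, a cation channel gene on the opposite strand, fell by 0.71, and Rps16-ps2 rose as did Adgrd1 (0.87) on the opposite strand. How reads that match several rows were counted is not stated either, so the share of reads that members exchange with their coding genes was not tested.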

How the data were processed

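RNA was sequenced as 150 bp paired-end reads from 6 libraries, 3 per group. Per the labels, FastQC, HISAT2 and featureCounts were used with build GRCm39 (versions and counting options are not given in the sources used here), and the authors deposited raw counts per gene for all libraries in 1 table, without normalization. The kit is ABclonal in the study and Illumina in the labels. From the deposited counts, CPM and fold changes were computed with R 4.3.3 and edgeR 4.0.16 (filterByExpr, TMM, quasi-likelihood test, Benjamini-Hochberg adjustment over 14799 genes). The labels do not state separate cultures, so p-values measure only the spread between these samples. Copies were matched with BLAST 2.17.0 against GENCODE vM21 coding transcripts by gene identifier, and no genome of build GRCm39 was used. Ratios used a prior count of 0.5. On simulated counts for 14550 genes edgeR recovered 40 of 50 genes changed by 1.5-fold, 40 of 50 changed by 2-fold and 49 of 50 changed by 4-fold, with 15 false calls. Only 50 genes were changed at each fold, whereas 66.8% of genes passed in the data, so these rates need not carry over. Alternatives were DESeq2 1.42.0, limma-voom 3.58.1, glmTreat, other scalings and filters, other limits and pairings, and leaving out each library. Named genes were the 12 members with the highest CPM, the 10 DEGs with the largest change in each direction, the 6 pairs with the largest difference in each direction, members near the limit, and families of 3 or more copies. Others were picked after their values were seen. Members and lists were chosen with earlier results of these data known. Some items that these rules select are not reported here.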

Additional observations from a re-analysis of the deposited data

How the results depend on the processing

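No paired analysis was possible because the groups share no replicate numbers. Unstated counting options, 3 libraries per group and a smallest p of 0.1 for single ratios limit the results. Of 143 alternative values of the summary results, 117 stayed within 1.5 times the main count or within the spread between libraries. That limit is wide: it takes in the 57 members lower and 28 higher at the adjusted p with DESeq2, against 74 and 38. Among the 117 are pair results under other scalings, which are no check, since a scaling acts on copy and parent alike. Members past the adjusted p and higher numbered 64 with scaling by library size only and 62 with upper quartile scaling, against 38, and the median log2 fold change was 0.11 with either, against -0.04. These scalings moved the median of all genes by 0.15 and 0.14, so the sign of the members' median follows the scaling. A test against 2-fold left 1 DEG higher. With a minimum mean of 10 counts, 49 DEGs were lower and 10 higher, and 15 pairs had ratios apart. A minimum of 100 counts gave 3 DEGs higher, 47 members lower and 21 higher at the adjusted p, and a median of -0.10. A minimum of 30 in each group gave 14 DEGs lower and 3 higher. Among members that overlap no other gene, 12 DEGs were lower and 2 higher, 48 members were lower at the adjusted p, and 3 pairs had ratios apart. On the same strand alone, 5 members moved with an overlapping gene. With the closest coding gene by sequence as parent, chosen after the data were seen, 36 of 252 pairs had ratios apart. Without 1 library in turn, 11 to 18 pairs did, where fewer libraries have to be apart. Adding the copies, also chosen later, gave -1.06 for Gapdh, -0.39 for Rpl13a and 0.16 for Rps10, against 0.90, 0.03 and -0.13. Of the named members past the threshold, 2 lost it in some setting: Rps10-ps2 and Rpsa-ps2, both with DESeq2 (0.16 and 0.66) and without single libraries. No named member past the threshold changed its direction. Both statements cover DESeq2, the other scalings and leaving out each library, the settings in which named members were followed. Gm7336 fell under 2-fold without T5 and without V2.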

Other observations

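Some members varied widely between libraries of one group. In groups with a mean of at least 30 counts, the highest library was at least 3 times the lowest in 8 members (2.93%), against 18 of 12915 tested genes with a mean of at least 30 (0.139%). The 12915 genes include the members. The comparison was not matched for count level, and the median of the members' mean counts was 93.7, so the shares do not show a trait of pseudogenes. Gm10155, a copy of Rpl21, had 8, 44 and 59 counts in V1 to V3 and 28, 6 and 78 in T4 to T6. Gm12254, a copy of Rpl24, had 95, 25 and 31 and then 46, 16 and 135, and Gm10288, a copy of Rpl11, had 132, 23 and 33 and then 35, 31 and 78. These were picked after their values were seen, and what sets the spread was not tested.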
